A study of Mus musculus with 44 samples.

Results

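Enteroendocrine cells are the rare hormone-secreting cells of the gut lining. They were picked out here from mouse small intestinal organoids of a RANKL time course that starts at day 0. RNA had been counted in sorted cells, 1 to a well, with unique molecular identifiers (UMIs), which count each captured transcript once. A well was taken as enteroendocrine when it held at least 1000 UMIs in all and at least 1 UMI of 3 or more of the 7 genes Insm1, Scn3a, Ghrl, Chgb, Pax4, Tph1 and Rfx6. By this rule 96 of 6558 RANKL wells were enteroendocrine, among 8231 wells of that depth in the whole series. The wells set against them were the 5993 RANKL wells without a UMI of any of the 7 genes, called none wells below. Another 403 wells had 1 of the 7 genes and 66 wells had 2 of them, and these entered neither group.

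The organoids came from a female Lgr5GFPDTR/+ mouse (labelled line26 wild type), so every group carried that Lgr5 knock-in allele. All had first been kept in medium with EGF, NOGGIN and R-SPONDIN1 plus 3 µM CHIR99021 and 1.5 mM valproic acid, then in that medium without either compound. They then received RANKL, the TNF family cytokine that drives M cell formation, at 100 ng/mL. One arm had RANKL with 40 µM CSRM617, an inhibitor of the transcription factor ONECUT2, and was sampled on days 0 to 6 with 2 plates a day. The RANKL arm was sampled on days 0 to 9 with 3 plates a day, 30 plates in all. Days are counted from RANKL, so day 0 wells of either arm had had no full day of it. Organoids of 1 mouse hold epithelium only, with no nerves, blood supply or food in a lumen, and nothing in the labels ties plates to separate cultures. The p-values below therefore reflect plate-to-plate spread, part of which may be technical.

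Enteroendocrine cells arise from crypt stem cells through a brief progenitor stage marked by the transcription factor Neurog3. Neurog3 switches on Insm1, Pax4, Rfx6 and Neurod1, and the cells then leave the cell cycle and build secretory granules. They end as subtypes named for their products, among them enterochromaffin cells, which make serotonin through Tph1, and X cells, which make ghrelin from Ghrl. Notch signals from neighbouring cells hold most crypt cells back from this path.

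Kept wells per plate ran from 26 to 282 in the RANKL arm and UMIs per plate from 155940 to 1640523. Plates of a day differed beyond counting noise: over 30 same-day pairs the chi-square statistic per gene ran from 2.43 to 19.1. The enteroendocrine wells were shallower than the none wells, with a median of 2890.5 UMIs and 1637 genes per well, against 4758 UMIs and 2251 genes in none wells. Their median depth was lower on 14 of the 15 plates used in the tests. At an equal 1000 UMIs per well the medians were 733 genes in enteroendocrine wells and 718 in none wells. As the only check on doublets, 9 wells exceeded their plate's median depth 3-fold, and 0 of them were enteroendocrine. Each of the 384 well positions was used on 2 or more plates, and the 96 wells sat at 86 of the 384 positions, with 8 positions used on more than 1 plate.

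The 7 genes of the rule were unevenly represented, and since the rule read them they are given as a description with no test. Insm1, a zinc finger factor that commits cells to the endocrine path, had UMIs in 82 of the 96 wells and 404 UMIs in all. Rfx6 and Pax4, a winged helix factor and a paired homeobox factor of endocrine progenitors, were found in 70 and 69 wells. Scn3a, a voltage-gated sodium channel subunit, was found in 59 wells with up to 23 UMIs in a well. Chgb, which encodes the granule protein chromogranin B, was found in 40 wells, and Tph1, the first enzyme of serotonin synthesis in the gut, in 30 wells. Ghrl was found in 7 wells. The transcription factors were thus detected in most wells and the products in fewer.

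In GRCm38 coordinates of GENCODE M21, Insm1 lies at chr2:146221921-146225020, Scn3a at chr2:65457118-65567627 and Chgb at chr2:132781278-132795079. Pax4 lies at chr6:28442334-28449353, Ghrl at chr6:113716119-113719880, Tph1 at chr7:46644641-46672537 and Rfx6 at chr10:51677756-51730432. CEL-Seq2 reads the ends of polyadenylated transcripts, and counts were given per gene with no exon-level value. Ghrl and Scn3a overlap antisense gene models, and whether the authors' counting used strand is not given in the sources used here.

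At the edge of the rule, 52 wells had exactly 3 of the genes, 27 had 4, 9 had 5, 8 had 6 and 0 had 7. Wells with exactly 3 rule genes had 647.6 summed CPM of Cpe, a gene outside the rule that encodes carboxypeptidase E, against 322.8 CPM in the 66 wells with 2 rule genes. CPM is the gene's UMIs scaled to a common total over the summed wells. Cacna1a stood at 1163 CPM in wells with exactly 3 and 710.1 CPM in wells with 2, so the wells just outside the rule were not free of endocrine transcripts. They also held 177 Ghrl UMIs in 3 wells, against 71 Ghrl UMIs in 4 of the wells with exactly 3 rule genes. Most Ghrl UMIs of these 2 sets of wells thus lay just outside the rule.

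The wells are divided below by Neurog3 and Tph1, and Rfx6, Gadd45a, Chgb and Reg4 are among the genes found more often on one side of that division. The promoter sequences of these 6 genes in the RefSeq table used here (GRCm38.p6, 250 bases before to 50 after the start, 2 for Tph1) are shown so that the E-boxes, the class of site that Neurog3 and its basic helix-loop-helix relatives bind, can be seen. Letters in capitals mark every CANNTG, which reads the same class on both strands.
Neurog3, chr10:62132840-62133139, plus strand: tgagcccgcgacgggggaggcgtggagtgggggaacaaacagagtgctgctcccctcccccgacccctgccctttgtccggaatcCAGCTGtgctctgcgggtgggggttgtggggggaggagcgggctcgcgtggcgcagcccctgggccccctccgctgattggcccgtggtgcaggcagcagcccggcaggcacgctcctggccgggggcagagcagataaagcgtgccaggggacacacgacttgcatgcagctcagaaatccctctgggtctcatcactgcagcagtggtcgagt
Tph1, chr7:46672488-46672787, minus strand: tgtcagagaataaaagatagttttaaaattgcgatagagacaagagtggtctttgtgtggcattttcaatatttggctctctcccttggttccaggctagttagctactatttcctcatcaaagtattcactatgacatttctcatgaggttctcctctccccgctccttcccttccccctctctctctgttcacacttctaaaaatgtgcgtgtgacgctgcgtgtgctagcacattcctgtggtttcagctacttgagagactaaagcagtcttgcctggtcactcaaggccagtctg
Tph1, chr7:46667328-46667627, minus strand: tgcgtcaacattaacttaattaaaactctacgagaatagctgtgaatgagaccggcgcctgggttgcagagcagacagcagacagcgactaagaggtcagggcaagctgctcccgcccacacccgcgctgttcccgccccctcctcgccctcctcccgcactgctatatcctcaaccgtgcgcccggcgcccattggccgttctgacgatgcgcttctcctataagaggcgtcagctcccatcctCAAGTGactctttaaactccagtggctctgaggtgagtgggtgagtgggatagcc
Rfx6, chr10:51685268-51685567, plus strand: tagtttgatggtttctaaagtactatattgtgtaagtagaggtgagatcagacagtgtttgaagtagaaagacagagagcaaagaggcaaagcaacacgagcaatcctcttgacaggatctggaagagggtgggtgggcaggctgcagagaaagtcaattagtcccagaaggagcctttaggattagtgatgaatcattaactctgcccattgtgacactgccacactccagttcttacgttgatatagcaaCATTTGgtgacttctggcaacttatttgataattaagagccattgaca
Gadd45a, chr6:67037358-67037657, minus strand: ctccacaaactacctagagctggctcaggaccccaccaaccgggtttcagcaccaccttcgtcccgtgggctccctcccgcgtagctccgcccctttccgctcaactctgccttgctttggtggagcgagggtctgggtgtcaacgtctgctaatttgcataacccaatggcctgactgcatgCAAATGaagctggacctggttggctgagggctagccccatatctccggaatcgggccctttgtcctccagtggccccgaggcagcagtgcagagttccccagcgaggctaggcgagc
Chgb, chr2:132781392-132781691, plus strand: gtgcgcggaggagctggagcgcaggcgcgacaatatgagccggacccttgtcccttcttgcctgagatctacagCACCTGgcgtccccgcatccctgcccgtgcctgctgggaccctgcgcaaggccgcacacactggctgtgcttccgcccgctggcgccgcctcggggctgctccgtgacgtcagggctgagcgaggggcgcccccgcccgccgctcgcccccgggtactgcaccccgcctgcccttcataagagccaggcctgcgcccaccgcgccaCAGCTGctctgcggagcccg
Reg4, chr3:98221906-98222205, plus strand: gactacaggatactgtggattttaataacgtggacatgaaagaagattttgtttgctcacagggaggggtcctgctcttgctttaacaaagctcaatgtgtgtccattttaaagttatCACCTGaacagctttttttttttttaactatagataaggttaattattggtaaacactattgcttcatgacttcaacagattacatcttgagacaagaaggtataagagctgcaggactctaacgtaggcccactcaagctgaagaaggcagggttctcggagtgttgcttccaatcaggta
Of 17 genes looked up, 9 matched, with 13 promoters, and 12 of these held CANNTG. Of all 32851 promoters in the table, 72.3% held it, so its presence is common. The narrower CAGATG, or CATCTG on the other strand, was in 2 of the 13 promoters, both of Ghrl, and in 17.2% of all promoters. A match describes letters in the window and nothing about binding.

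Genes outside the rule were compared between enteroendocrine and none wells by summing the counts of each class per plate. The 15 plates with at least 3 enteroendocrine wells entered, and edgeR's quasi-likelihood test with the plate as a term was run on 8125 genes. At an adjusted p under 0.05, 1931 genes were called, 23.8% of those tested, 962 of them higher in enteroendocrine wells (11.8%) and 969 lower (11.9%). The share of calls that were higher, 49.8% here, moved with the scaling: it was 36.7% with DESeq2, 66.5% with TMM over well-covered genes and 10.5% with TMM over all tested genes, which shifted the median gene by -0.69 on the log2 scale. Of 68 genes named for this comparison, 62 stayed on the same side of the threshold whichever plate was left out, the others being Dll1, Hes6, Notch2, Itln1, Lyz1 and Mmp7. Called genes that were higher included granule, calcium and amine handling genes and Notch ligands, and called genes that were lower included stem cell and cell cycle genes. A gene scarce in none wells, such as Ets1 below, passes the filter on low counts mainly through the enteroendocrine wells. Calls of such genes as higher were thus favoured in advance.

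Cpe, the enzyme that trims peptide prohormones in the granule, had 236.8, 401.9 and 1280 CPM in enteroendocrine wells (lowest, median and highest of 15 plates), against 0, 5.96 and 12.1 CPM in none wells. The ranges did not overlap. Cpe was higher by 6.56 ± 0.27 (log2 fold change ± SE) with an adjusted p of 7.00e-130, in 15 of 15 plates. Here and below this SE is the size of the log2 fold change divided by the square root of the test's F statistic. It is not a measure of the spread between plates. Slc18a1, the vesicular monoamine transporter that loads serotonin into granules, had 90.4, 614.0 and 1206 CPM in enteroendocrine wells, against 6.00, 9.87 and 30.6 CPM in none wells. Its rise of 5.51 ± 0.24 had an adjusted p of 3.31e-110 and was seen in 15 of 15 plates. Slc18a1 had UMIs in 67.7% of enteroendocrine wells and 5.14% of none wells, a share for none wells that includes any free RNA.

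Ets1, an ETS family transcription factor, had the largest rise among called genes whose mean log2 CPM was at least 5. It had 0, 401.9 and 1180 CPM in enteroendocrine wells, against 0, 3.16 and 8.57 CPM in none wells, a rise of 7.18 ± 0.29 with an adjusted p of 7.48e-130. It was higher in 14 of 15 plates, the exception being a plate with no Ets1 UMI in its enteroendocrine wells. Hepacam2, an immunoglobulin superfamily membrane protein, had 510.5, 924.8 and 1668 CPM in enteroendocrine wells, against 3.72, 48.9 and 89.1 CPM in none wells, and rose by 4.42 ± 0.19. Itpr1, the receptor that releases calcium from internal stores, had 121.5, 511.9 and 1067 CPM in enteroendocrine wells, against 10.6, 18.9 and 33.7 CPM in none wells, and rose by 4.75 ± 0.24. Both were higher in 15 of 15 plates with no overlap of the ranges. Antisense gene models overlap Ets1, Itpr1, Slc18a1, Cacna1a, Syt7, Rph3al, Dst, Gm609 and Gadd45a, so reads of a partner cannot be told apart from theirs without strand.

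Cacna1a, the pore subunit of a neuronal calcium channel, had UMIs in 91.7% of enteroendocrine wells and 16.4% of none wells. Per plate it had 324.0, 932.6 and 2048 CPM in enteroendocrine wells, against 14.9, 49.0 and 91.7 CPM in none wells, and rose by 4.30 ± 0.18 in 15 of 15 plates. Of 12 genes of nutrient sensing and excitability with counts, 3 were tested. Cacna1a was the 1 called, where 11.8% of all genes tested were called higher. The others were scarce: Trpa1, a cation channel of enterochromaffin cells, had UMIs in 5 of the 96 wells, and Abcc8, Kcnj11, Piezo2, Galr1 and Gpbar1 in 0. A count of 0 of 96 wells is a statement about captured UMIs at this depth.

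**Figure D1:**
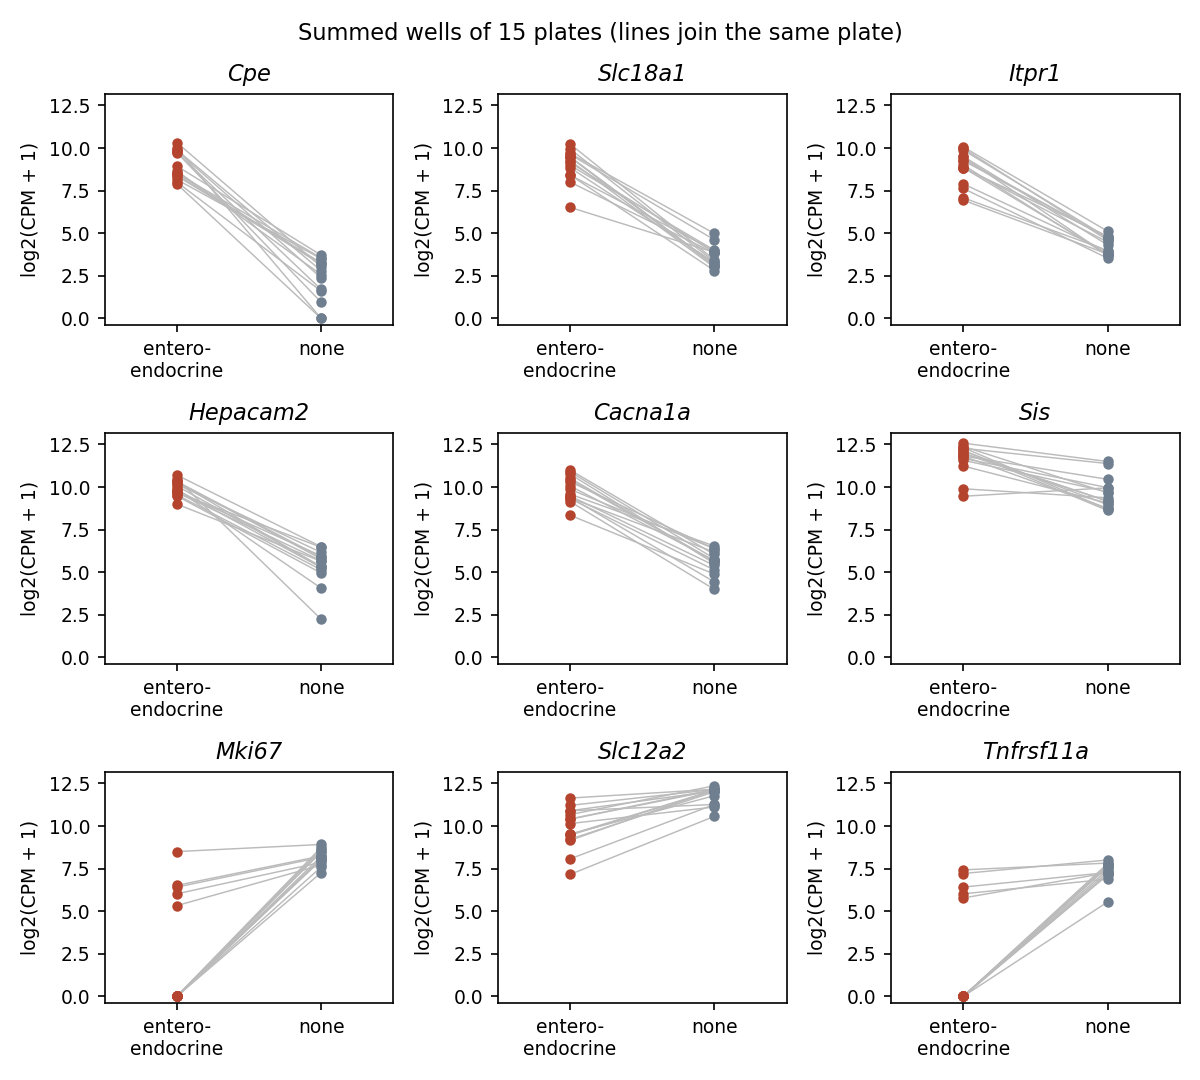
Expression of 9 genes on the 15 tested plates, as log2(CPM + 1) of summed wells, with enteroendocrine wells on the left and none wells on the right of each panel and lines joining the same plate. Cpe, Slc18a1, Itpr1, Hepacam2 and Cacna1a are separate in all 15 plates, Sis is higher in 14, and Mki67, Slc12a2 and Tnfrsf11a are lower in enteroendocrine wells.

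The other named rises were Reg4, Syt7, Gadd45a, Rph3al, Dst, Gm609, Dock4, Trp53i11 and Camk2n1, with log2 fold changes of 3.47 to 4.66. Syt7, a calcium sensor of vesicle fusion, had a median of 341.3 CPM in enteroendocrine wells, against 13.9 CPM in none wells, and was higher in 14 of 15 plates. Rph3al, a Rab effector of regulated exocytosis, had a median of 286.9 CPM in enteroendocrine wells, against 15.3 CPM in none wells, and was higher in 13 of 15. Camk2n1, an inhibitor of the kinase CaMKII, and Dst, a cytoskeletal linker, were higher in 15 of 15 plates. Reg4 differed from the rest in being uneven: its enteroendocrine sums ran from 0 to 9378 CPM with a median of 53.8, against 8.72 to 163.4 CPM in none wells with a median of 18.3. Its rise of 4.66 ± 0.24 was seen in 9 of 15 plates.

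Of 21 granule and secretory pathway genes with counts, 7 passed the filter on low counts. All of those 7 were called higher, where 11.8% of all genes tested were. Because a gene that is scarce in none wells passes only through the enteroendocrine wells, this count had to come out high. Besides Cpe, Slc18a1 and Syt7 they were Syt13, a synaptotagmin, with 76 UMIs in enteroendocrine wells and 12 in the far deeper none sums, Cplx2, a complexin that clamps vesicle fusion, Pam, which amidates peptides, and Slc18a2, the second vesicular monoamine transporter. Pam rose by 1.38 ± 0.33 and Slc18a2 by 1.64 ± 0.40, with adjusted p of 0.000298 and 0.000481. Of the untested genes, Ptprn2, a granule membrane phosphatase-like protein, had UMIs in 34.4% of enteroendocrine wells and 0.150% of none wells. Chga, which encodes chromogranin A and is the usual stain for these cells, had UMIs in 12 of 96 enteroendocrine wells and 16 of 5993 none wells. The prohormone convertases were scarce, with Pcsk1 in 3 enteroendocrine wells and Pcsk2 in 0. Scg2, Scg5 and Pcsk1n were not analysed here.

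The markers named for this class beyond the rule were thus only partly present. Cpe had UMIs in 73 of the 96 wells, Fev in 25, Rab3c in 13, Chga in 12, Sct in 9, Resp18 in 7, Scg3 in 4 and Pcsk1 in 3. Of the 5993 none wells, Cpe had UMIs in 156, Fev in 3, Rab3c in 7, Chga in 16, Sct in 107, Resp18 in 0, Scg3 in 4 and Pcsk1 in 5. As a share of wells each was more frequent in the enteroendocrine wells, although those were shallower.

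Transcription factors of the lineage outside the rule were mostly too scarce for the test, 3 of 17 being tested. Sox4, an HMG-box factor of secretory progenitors, had 401.9, 1686 and 3392 CPM in enteroendocrine wells, against 329.2, 996.9 and 1540 CPM in none wells, and rose by 0.82 ± 0.14 with an adjusted p of 2.18e-07. Over all settings tried with edgeR and DESeq2 the Sox4 change ran from 0.0825 to 1.04, with an adjusted p of up to 0.712. Rcor2, a corepressor subunit, rose by 3.15 ± 0.33 and Foxa2, a forkhead factor, by 1.43 ± 0.30. In wells, Neurog3 was found in 34.4% of enteroendocrine and 0.167% of none wells, Neurod2 in 37.5% and 0.167%, Nkx2-2 in 37.5% and 0.367%, Myt1 in 40.6% and 0.150%, and St18 in 46.9% and 0.884%. Fev, a factor of serotonin cells, was found in 25 of 96 enteroendocrine wells and 3 of 5993 none wells. Isl1, Pax6 and Hhex were rare, in 3, 3 and 0 of the 96 wells. Neurod1 was not analysed here.

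The hormone genes were sparse. Of 96 wells, 67 had no UMI of any of the 9 peptide hormone genes in the table, and 53 had neither such a gene nor Tph1. Sct, which encodes secretin, was found in 9 wells, Ucn3, which encodes urocortin 3, in 8, Tac1, which encodes substance P, in 7, Iapp, which encodes amylin, in 5, Pyy in 3 and Nts in 1. Cck and Gip had 0 UMIs in the 96 wells, which allows up to 3.13% of such wells to hold a UMI at this depth and sets no limit on the wells that express them. Cck also had 0 UMIs in the none wells. Gcg, Sst, Insl5, Gast and Gal were not analysed here. Enzymes of amine synthesis were more frequent: Ddc, which makes serotonin from its precursor, rose by 1.99 ± 0.20 with 15 of 15 plates higher, and Gch1, the first enzyme of the cofactor that Tph1 needs, rose by 3.35 ± 0.41.

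The 7 wells with Ghrl came from days 2, 3, 5, 6, 7 and 9 and were unlike each other. Single wells of day 3 and day 9 held 33 and 32 Ghrl UMIs, with 0 Tph1 UMIs in both. A well of day 7 had 4 Ghrl UMIs, a well of day 6 had 2, and the other 3 wells had 1 each, of which 2 also had Tph1 UMIs. Mboat4, the acyltransferase that activates ghrelin, had 0 UMIs in all 7. Isl1, a LIM homeobox factor known for marking ghrelin cells, had 6, 4 and 8 UMIs in 3 of the wells and 0 in the other 4. Tph1 without Ghrl marked 28 wells, Ghrl without Tph1 marked 5 and both marked 2, and since 0 plates had at least 2 wells of each kind the planned test between them was not run.

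Of 12 Notch pathway genes in the table, 6 were tested, and 4 were called higher and 2 lower, where 11.8% of all genes tested were higher and 11.9% lower. Dll4 is scarce in none wells, so it passed the filter on low counts mainly through the enteroendocrine wells. Its call as higher was thus favoured in advance. The calls of Dll1, Hes6 and Notch2 were each lost when a single plate was left out, by 3, 4 and 1 of the 15 plates in turn, and those of Dll4, Jag2 and Hes1 were kept. Dll4, a ligand, had 0, 117.4 and 213.4 CPM in enteroendocrine wells, against 1.86, 6.32 and 14.7 CPM in none wells, and rose by 3.57 ± 0.46 in 14 of 15 plates. The ligand Jag2 rose by 1.85 ± 0.50. The receptor Notch2 fell, with a log2 fold change of -1.60 ± 0.53, although on the 4 plates of days 0 to 3 alone the fitted changes of Notch2 (0.33) and of the ligand Dll1 (-1.17) had the other sign. Notch2 stood at -1.27 without replicate 2 of day 8 (adjusted p = 0.0944) and at -3.06 without replicate 3 of day 2. Hes1, the repressor that Notch induces and that holds cells back from secretory fates, had 0, 40.5 and 638.2 CPM in enteroendocrine wells, against 192.4, 459.3 and 579.6 CPM in none wells, and fell by 1.90 on the log2 scale with an adjusted p of 1.35e-11.

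All 10 cell cycle genes of the list were tested and all 10 fell, where 11.9% of all genes tested were lower, with a median log2 fold change of -1.78, against -0.04 over all genes tested. Mki67 had 0, 0 and 360.9 CPM in enteroendocrine wells, against 152.5, 286.6 and 481.9 CPM in none wells, and its log2 fold change was -2.60 ± 0.33, or -4.05 without replicate 1 of day 8. At an equal 1000 UMIs per well, 2.08% of enteroendocrine wells and 17.4% of none wells had an Mki67 UMI. Of 8 stem cell genes, 7 fell and Axin2, a Wnt target, did not pass the test. Lgr5, the stem cell marker, had 0, 91.7 and 829.6 CPM in enteroendocrine wells, against 34.0, 469.8 and 735.6 CPM in none wells, with a log2 fold change of -1.66 ± 0.25. Slc12a2, an ion cotransporter of crypt cells, and Olfm4 fell by 1.67 and 2.02 on the log2 scale.

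The receptor of RANKL was lower in these cells. Tnfrsf11a, which encodes RANK, had 0, 0 and 170.6 CPM in enteroendocrine wells, against 45.6, 169.5 and 256.1 CPM in none wells, a log2 fold change of -2.25 ± 0.39 with an adjusted p of 2.31e-07 and 0 of 15 plates higher. It had a UMI in 9 of 96 enteroendocrine wells and in 50.5% of none wells. At 1000 UMIs per well the shares were 3.13% in enteroendocrine and 16.3% in none wells. Of 11 genes of RANK and NF-kappaB signalling that were tested, 6 fell and 0 rose, where 11.9% of all genes tested were lower and 11.8% higher. Onecut2, the gene of the factor that CSRM617 inhibits, had 0, 704.7 and 1340 CPM in enteroendocrine wells, against 382.9, 525.1 and 1045 CPM in none wells, and did not pass the test (log2 fold change 0.25 ± 0.17, adjusted p = 0.286), whereas with TMM over all tested genes it was called lower at -0.46 (adjusted p = 0.0291).

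The genes with the largest fitted falls had no UMI in the summed enteroendocrine wells, so that only a bound can be given. Counted against 3 UMIs over the whole class, Rfc4, a subunit of the DNA clamp loader, was at least 4.00-fold lower in enteroendocrine wells, with 0 UMIs there against 655 UMIs in none wells. AW112010, an interferon-inducible transcript, was at least 4.35-fold lower, and Rps12, Mfsd4a, Gm20663, Slc5a9, Cttnbp2, Dhrs11 and Clec2e were each at least 2.71-fold lower. Rps12 belongs to a ribosomal protein family with near-identical copies, and Rfc4 and Mfsd4a overlap genes on the other strand, so these counts are uncertain. Knl1, a kinetochore protein, had 1 UMI in enteroendocrine wells, on replicate 1 of day 8, against 1396 UMIs in none wells, a ratio of 0.0391 with a 95% counting interval of 0.000989 to 0.218. Intervals and limits cover counting error only, and make no allowance for these genes having been picked as the largest falls.

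Markers of other epithelial cells moved with the class. Sis, the sucrase-isomaltase of the enterocyte brush border, had 702.0, 3984 and 6092 CPM in enteroendocrine wells, against 392.9, 658.9 and 2892 CPM in none wells. It was higher in 14 of 15 plates by 2.12 ± 0.14, with an adjusted p of 1.98e-52, and had a UMI in 92.7% of enteroendocrine and 53.1% of none wells. The 10 enterocyte genes summed to 702.0 to 6092 CPM in enteroendocrine wells, against 672.5 to 7522 CPM in none wells, and Sis was the source of most of the enteroendocrine sum. The defining lipid carriers were near 0: Fabp1 had 1 UMI in the 96 wells and Fabp2 had 2, and Alpi, Fabp2, Mttp and Apoa1 were called lower. Alpi, the brush border phosphatase, had 18 UMIs in 2 of the 96 wells, 14 of them in 1 well. All 18 were on replicate 3 of day 2, so without that plate Alpi had 0 UMIs in enteroendocrine wells. The log2 fold change of Mttp, -2.31, became -3.65 without the same plate.

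Tff3, the goblet trefoil peptide, had 71.1, 810.1 and 2901 CPM in enteroendocrine wells, against 129.2, 401.2 and 980.7 CPM in none wells, and rose by 1.24 ± 0.16 in 11 of 15 plates. The goblet mucin Muc2 had 1 UMI in the 96 wells, Clca1 and Zg16 had 0, and Agr2, Guca2a and Spink4 were called lower; the 9 goblet genes summed to 71.1 to 2947 CPM in enteroendocrine wells, against 285.5 to 1530 CPM in none wells. The 3 Guca2a UMIs of enteroendocrine wells were likewise all on replicate 3 of day 2. Tuft markers were close to absent, with a summed 0 to 39.1 CPM in enteroendocrine wells, against 4.65 to 135.4 CPM in none wells, and Dclk1 and Pou2f3 at 0 UMIs. Of 7 Paneth genes 4 were tested and all 4 were lower, where 11.9% of all genes tested were. Of those 4 only Defa24 kept its call whichever plate was left out: those of Itln1, Lyz1 and Mmp7 were lost without 7, 2 and 2 of the plates in turn, and Itln1 ran from -0.58 without replicate 3 of day 2 to -2.89 without the day 0 plate. The list summed to 0 to 3967 CPM in enteroendocrine wells, against 247.7 to 1874 CPM in none wells, the high end being Itln1 on a day 0 plate. Lyz1 had 10 UMIs in 7 of the 96 wells. The M cell factor Spib had 5 UMIs in 3 wells and Gp2, Sox8 and Tnfaip2 had 0, while Serpinb1a and Marcksl1 of that list rose by 0.95 and 1.03 on the log2 scale (Serpinb1a stood at -0.19 on days 0 to 3 alone) and Ctsh and Clec2h fell. Over all settings tried with edgeR and DESeq2 the Marcksl1 change ran from 0.268 to 1.26, with an adjusted p of up to 0.833. The 10 M cell genes summed to 702.0 to 5889 CPM in enteroendocrine wells, against 539.4 to 5010 CPM in none wells. The part of other cell types' RNA in these values was not tested.

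The enteroendocrine wells differed among themselves in whether they held UMIs of Neurog3, the progenitor factor, or of Tph1, the enzyme of serotonin synthesis. This division was chosen after the values were seen and is a description. Neurog3 was found without Tph1 in 24 wells, Tph1 without Neurog3 in 21, both in 9 and neither in 42. Median depth was alike in the Neurog3 and Tph1 groups, at 2983 and 2734 UMIs. In the same order, 20 and 12 of these wells came from days 4 to 9, and 4 and 9 from days 0 to 3. A difference between the groups therefore cannot be told apart from a difference of day.

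Of the rule genes, Insm1 and Pax4 were found in all 24 wells with Neurog3 and no Tph1, against 14 and 7 of the 21 wells with Tph1 and no Neurog3, and Rfx6 in 21 and 9. Chgb was found in 3 of the Neurog3 wells and 17 of the Tph1 wells, and Scn3a in 10 and 20. The rule fixes part of these counts, since a well without Tph1 had to reach 3 of the other rule genes and a well with Tph1 needed only 2 more. The genes that follow lie outside the rule. Gadd45a, a growth arrest gene, was found in 23 of the 24 Neurog3 wells and 4 of the 21 Tph1 wells. The Notch ligand Dll1 was found in 10 of the Neurog3 wells and 4 of the Tph1 wells, and Mfng, a glycosyltransferase of Notch receptors, in 7 and 0. Reg4, a secreted lectin known as a marker of enterochromaffin cells, had 0 UMIs in the Neurog3 wells and 302 UMIs in 9 of the Tph1 wells. Tac1, co-produced with serotonin in enterochromaffin cells, was found in 0 of the Neurog3 wells and 5 of the Tph1 wells. Cpe, Slc18a1 and Ets1 were found in most wells of both kinds. Of 21 granule genes outside the rule, 8 were found in a larger share of the Neurog3 wells, 11 in a larger share of the Tph1 wells and 2 in none. Syt13 was found in 17 of the Neurog3 wells and 8 of the Tph1 wells, Cpe in 19 and 14, Syt7 in 15 and 11 and Cplx2 in 14 and 11. Rab3c was found in 0 of the Neurog3 wells and 8 of the Tph1 wells, Slc18a2 in 0 and 6 and Chga in 2 and 5, so the granule genes did not all lie on one side.

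**Figure D2:**
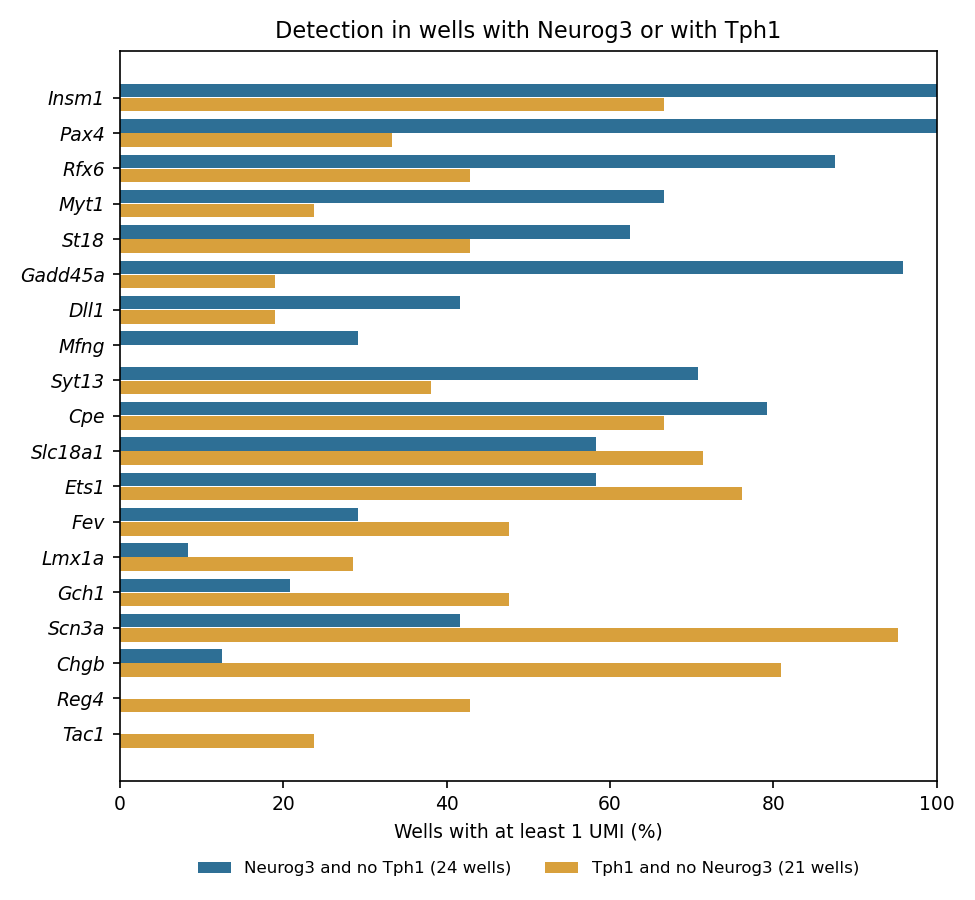
Share of wells with at least 1 UMI of each gene (horizontal axis, percent) among 24 enteroendocrine wells with Neurog3 and no Tph1 and 21 with Tph1 and no Neurog3. Insm1 and Pax4, both genes of the rule, reach 100% in the Neurog3 wells, and the rule genes Scn3a and Chgb and the genes Reg4 and Tac1 outside it are more frequent in the Tph1 wells.

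**Figure D3:**
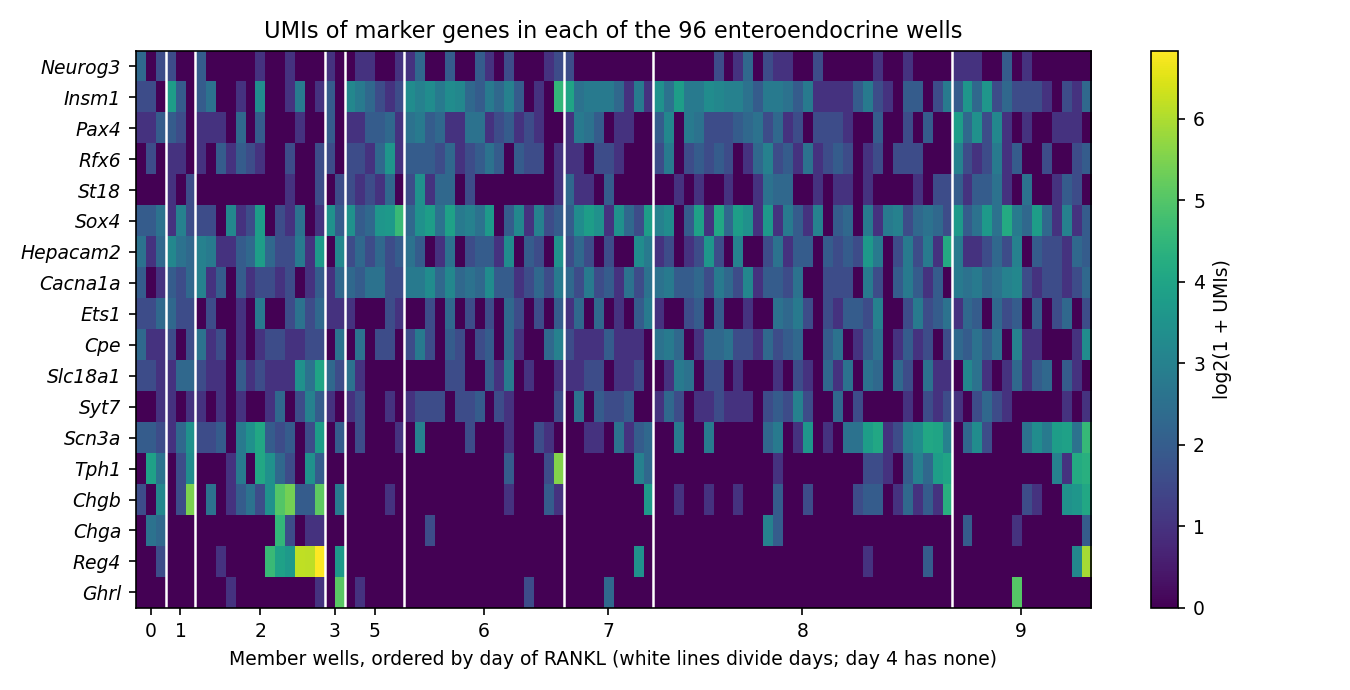
UMIs of 18 genes (rows) in each of the 96 enteroendocrine wells (columns, by day of RANKL, low to high, and within a day from wells richer in Insm1 and Pax4 to wells richer in Tph1, Chgb and Reg4); colour is log2(1 + UMIs). Reg4 reaches 113 UMIs in a well of day 2, Chgb reaches 44 UMIs in a well of day 1 and 41 in a well of day 2, and Insm1 is present in 70 of the 75 wells from day 5 on.

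The share of enteroendocrine wells varied by day. It averaged 0.437 ± 0.756% on day 0 (SD, n = 3 plates here and below), 0.404 ± 0.408% on day 1, 1.85 ± 0.613% on day 2 and 0.246 ± 0.426% on day 3. On day 4 it was 0 of 197 wells, which allows a share of up to 1.52%. It averaged 0.966 ± 0.932% on day 5, 2.07 ± 0.192% on day 6, 1.16 ± 0.767% on day 7, 3.67 ± 1.73% on day 8 and 2.16 ± 1.67% on day 9. The highest single plate, on day 8, had 16 enteroendocrine wells and a share of 5.67%. Over the arm the share was 1.46%, with an exact binomial 95% interval of 1.19 to 1.78% that covers the counting of wells only. Single plates ran from 0 to 5.67%, a far wider spread.

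Days 4 to 9 averaged 1.67% and days 0 to 3 averaged 0.735%, a difference of 0.936 percentage points. An exact two-sided permutation test of the 10 day means gave p = 0.214, so the difference was within the spread between days. When all wells were thinned to 1000 UMIs before the rule was applied, 53 wells met it (0.808%), and days 4 to 9 averaged 0.900% against 0.417% for days 0 to 3, with an exact permutation p of 0.262. A share can move with the number of other cells as well as with that of enteroendocrine cells.

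**Figure D4:**
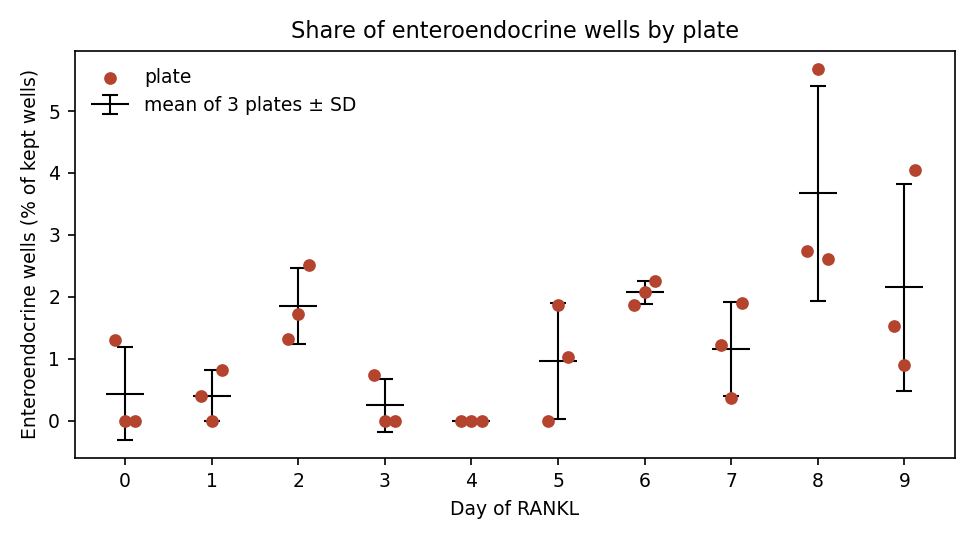
Enteroendocrine wells as a percent of kept wells on each of the 30 RANKL plates (points) by day of RANKL, with the mean of 3 plates and its SD. The mean is highest on day 8 (3.67%), followed by day 9 (2.16%) and day 6 (2.07%), and day 4 has 0 on all 3 plates.

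Days 4 to 9 gave 75 enteroendocrine wells and days 0 to 3 gave 21, with median depths of 2966 and 2734 UMIs. The genes of the rule picked these wells and are described with no test. Insm1 was found in 70 of the 75 later wells and 12 of the 21 earlier wells, Pax4 in 57 and 12, and Rfx6 in 58 and 12. Chgb was found in 24 of the 75 later wells and 16 of the 21 earlier wells. Scn3a was found in 41 and 18, Tph1 in 18 and 12, and Ghrl in 4 and 3. Summed per plate, Insm1 averaged 1603 ± 596 CPM on the 11 later plates and 456.2 ± 223.6 CPM on the 4 earlier plates (SD), and Chgb averaged 471.2 ± 513.6 CPM on later plates and 2152 ± 889 CPM on earlier plates. The Chgb ranges overlapped, with 1539 CPM at the highest on later plates and 1417 CPM at the lowest on earlier plates. Outside the rule, Neurog3 was found in 26 of the later and 7 of the earlier wells, close to equal shares of 34.7% and 33.3%.

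Counts of enteroendocrine wells were then compared between the 11 plates of days 4 to 9 and the 4 plates of days 0 to 3, of which 1 was from day 0 and 3 were from day 2. Of 1593 genes tested, 27 were called, 1.69% of those tested, 10 higher on days 4 to 9 (0.628%) and 17 lower (1.07%). The boundary between day 3 and day 4 was chosen with earlier results of these data known. With 3 of the 4 earlier plates from day 2, a difference of period cannot be told apart from a feature of that day. The test took plates as replicates, and plates of a day share that day. Its p-values, and those of the difference of changes below, therefore do not fully measure the spread between days. Single plates decided much of the count: without replicate 2 or 3 of day 2, 5 and 4 genes were called, and without replicate 2 or 3 of day 8, 15 and 17. Of the 19 genes named below, Id2, Reg4 and Serpinb6a kept their call whichever plate was left out.

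Reg4 had 0 CPM on 6 of the 11 later plates and 32.8, 53.8, 843.1, 947.3 and 2310 CPM on the others, against 283.3, 9378, 6232 and 4375 CPM on the earlier plates of day 0 and day 2. High values were thus found in the 3 day 2 plates, and the ranges overlapped. Reg4 was lower on later days by a log2 fold change of -3.68 ± 0.65 with an adjusted p of 0.000638. Id2, an inhibitor of basic helix-loop-helix factors, had 0, 90.4 and 255.3 CPM on later plates (lowest, median, highest), against 283.3, 2010, 2159 and 891.1 CPM on earlier plates, with no overlap. Its log2 fold change was -3.78 ± 0.44, with an adjusted p of 5.70e-08. Both calls were lost when wells needed 4 rule genes (adjusted p = 0.732 for Reg4 and 0.238 for Id2), where fewer wells and plates entered, and DESeq2 did not call Reg4 (adjusted p = 0.281).

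Serpinb6a, a serine protease inhibitor, had a median of 98.4 CPM and at most 452.2 CPM on later plates, against 425.0 to 1377 CPM on earlier plates, a log2 fold change of -2.94 ± 0.46. This call too was lost when wells needed 4 rule genes (adjusted p = 0.240). The other named falls were Anxa5, a phosphatidylserine-binding annexin, Lypd8, a secreted antibacterial protein of the colon, Slc26a2, a sulfate transporter, 2210407C18Rik, S100a6, a calcium-binding protein, Lgals4, a lectin of the apical membrane, and Nfkbia, the inhibitor of NF-kappaB, at -1.85 to -2.54 on the log2 scale. Nfkbia had 0 to 421.5 CPM on later plates, against 0, 268.0, 1374 and 729.1 CPM on earlier plates, and its log2 fold change of -1.85 became -1.16 without replicate 2 of day 2 (adjusted p = 0.460). Of 2 tested genes of RANK and NF-kappaB signalling it was the 1 that was called, where 1.07% of all genes tested were lower.

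Among the rises, St18, a zinc finger factor of the Myt family, had 0, 382.9 and 1194 CPM on later plates, against 0, 0, 98.1 and 40.5 CPM on earlier plates. With 89 UMIs on later plates and 3 on earlier plates, the ratio of its summed counts was 8.28 with a 95% counting interval of 2.74 to 40.9, and the fitted log2 fold change was 3.09 ± 0.77 (adjusted p = 0.0262). Gadd45a had 236.8, 781.5 and 1375 CPM on later plates, against 425.0, 0, 294.4 and 40.5 CPM on earlier plates, a log2 fold change of 2.06 ± 0.56 (adjusted p = 0.0436). Olfm4, a stem cell glycoprotein, had 234.9, 1066 and 10530 CPM on later plates, against 0 to 425.0 CPM on earlier plates, a log2 fold change of 3.105 ± 0.76 (adjusted p = 0.0257). Of the later plates, those at 234.9 and 279.1 CPM lay within the range of the earlier ones.

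Further rises were those of Trpm7, a channel kinase, Chd6, a chromatin remodeller, Igsf8, Mxi1, a MYC antagonist, Gm10800 and Rybp, a Polycomb subunit. Trpm7 and Chd6 had 2 UMIs each and Mxi1 had 3 UMIs on earlier plates, with ratios of summed counts of 8.94, 8.80 and 5.96 and 95% counting intervals of 2.37 to 75.4, 2.34 to 74.2 and 1.95 to 29.6. Both earlier UMIs of Trpm7 were on replicate 2 of day 2. The fitted rise of Igsf8 was 2.71, or 4.37 without the day 0 plate. Of 8 tested transcription factors of the lineage St18 was called, where 0.628% of all genes tested were higher. The 7 tested granule genes had adjusted p of 0.458 to 0.979. Hormone genes outside the rule were too scarce to be tested. The summed hormone genes outside the rule had a median of 0 CPM on later plates and 859.9 CPM on earlier plates.

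**Figure D5:**
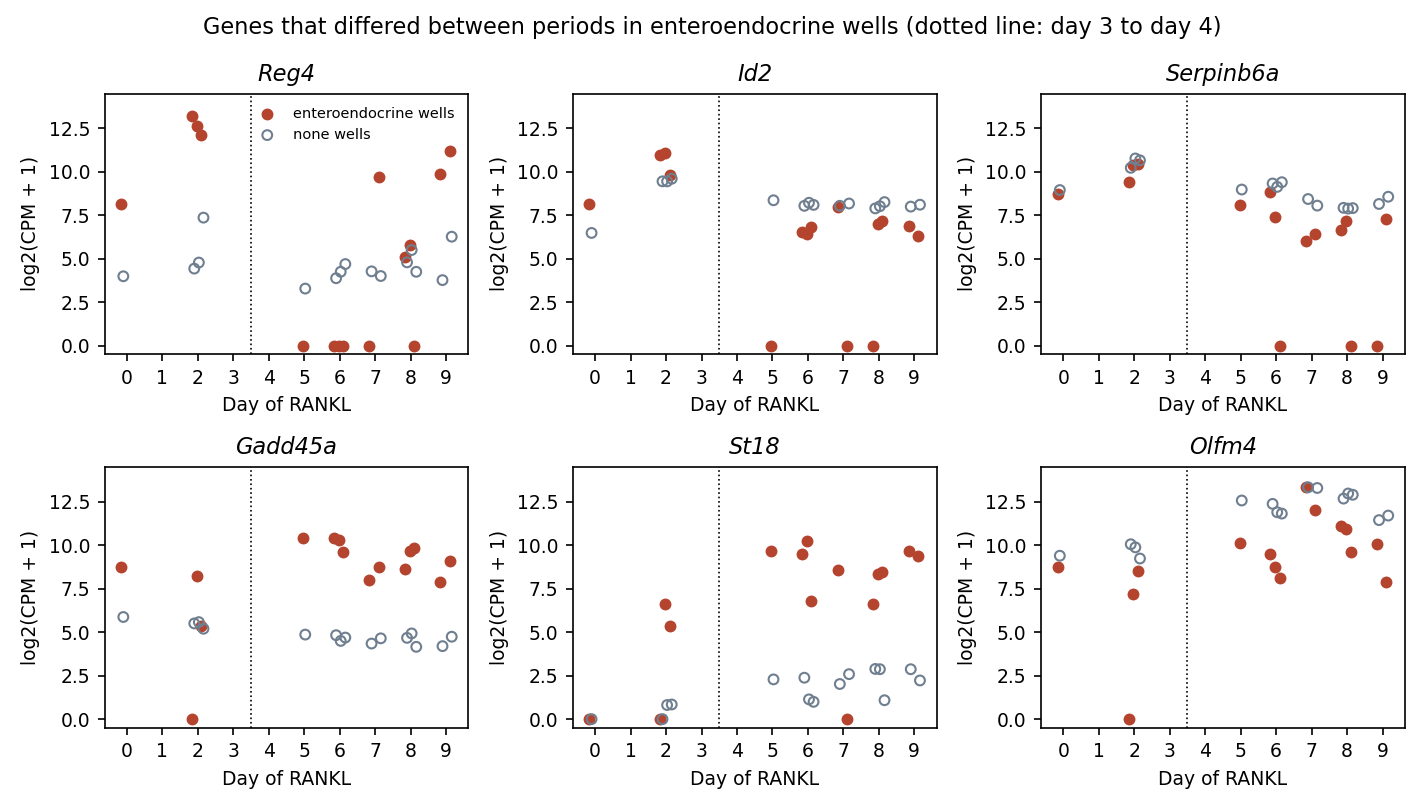
Expression of 6 genes by day of RANKL as log2(CPM + 1), for enteroendocrine wells (filled points) and none wells (open points) of the 15 tested plates. Reg4, Id2 and Serpinb6a are lower in enteroendocrine wells after the dotted line between day 3 and day 4, and Gadd45a, St18 and Olfm4 are higher.

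To see whether these differences were shared with the rest of the epithelium, the change of enteroendocrine wells between periods was set against that of none wells on the same plates. On simulated data this comparison recovered 5% of genes changed 4-fold and 0% of those changed 2-fold. A gene without a call may therefore still differ. Olfm4 was tested without a call, St18 was too scarce to be tested, and no value is given here for Id2 or Serpinb6a. Of 8125 genes, 20 had a different change, 0.246% of those tested, 6 with a more positive change in enteroendocrine wells (0.0738%) and 14 with a more negative one (0.172%). Reg4 averaged 380.6 CPM later and 5067 CPM earlier in enteroendocrine wells, against 25.1 CPM later and 56.3 CPM earlier in none wells, and its change differed by -3.53 ± 0.40 on the log2 scale (adjusted p = 8.77e-15). Gadd45a averaged 763.5 CPM later and 190.0 CPM earlier in enteroendocrine wells, against 23.6 and 46.1 CPM in none wells in the same order, and its change differed by 2.97 ± 0.52 (adjusted p = 3.85e-05). These 2 of the 10 named genes kept their call whichever plate was left out. Both were lost with DESeq2, which called 0 genes (270 at an unadjusted p under 0.05) and gave adjusted p of 0.685 for Reg4 and 0.0824 for Gadd45a, and when wells needed 4 rule genes, with an adjusted p of 0.955 for both. The Reg4 difference was also lost with at least 5 enteroendocrine wells per plate, at -1.61 (adjusted p = 0.379). Without replicate 1 of day 2, 11 genes were called, and without replicate 2 of day 8, 13.

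Rybp and Gm10800 also had a more positive change in enteroendocrine wells, by 2.17 and 2.05, and Gm10800 stood at 1.30 without replicate 2 of day 2 (adjusted p = 0.465) and at 3.34 without replicate 3. For Krt20 and Serpinb1a the more positive change came with lower none wells: Serpinb1a averaged 547.1 CPM later and 1352 CPM earlier in enteroendocrine wells, against 216.8 CPM later and 1468 CPM earlier in none wells. Itln1, a Paneth and goblet lectin, had 1 UMI on later and 28 UMIs on earlier plates in enteroendocrine wells, 23 of these in 1 well, and Hbegf, Gm17494 and Cfap299 had 5, 2 and 7 UMIs later and 14, 9 and 10 UMIs earlier. Those 4 rest on few transcripts. The difference for Itln1, -4.41, became -2.04 without the day 0 plate (adjusted p = 0.840), and its later UMI was on replicate 1 of day 8. For Cfap299 -3.22 became -1.58 without replicate 3 of day 2 (adjusted p = 0.901), and for Krt20 2.68 became 4.32 without the same plate. Both later UMIs of Gm17494 were on replicate 3 of day 9.

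The RANKL+CSRM617 arm was compared for the share of wells that met the rule. Its table was made separately and its wells were shallower, with a median of 2844 UMIs, against 5083.5 UMIs in RANKL wells of days 0 to 6, so the rule was applied after thinning every well to 1000 UMIs. Then 16 of 1673 RANKL+CSRM617 wells and 24 of 4324 RANKL wells met it. The mean over days was 1.19% in RANKL+CSRM617 and 0.472% in RANKL, a difference of 0.717 percentage points with p = 0.0895 in an exact two-sided permutation of plates within days. Without thinning 17 RANKL+CSRM617 wells and 43 RANKL wells met the rule, and the difference was 0.366 with an exact permutation p of 0.423. Left out in turn, replicate 1 of day 1 and replicate 2 of days 4 and 6 of RANKL+CSRM617 gave differences of 0.865, 1.05 and 1.12, with exact permutation p of 0.0329, 0.0392 and 0.0168, whereas without replicate 1 of day 4 or of day 6 the differences were 0.384 and 0.312.

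In the 17 RANKL+CSRM617 wells, Insm1 was found in 16, Scn3a in 13, Tph1 in 11, Pax4 in 10, Chgb in 8, Rfx6 in 7 and Ghrl in 1. Of genes outside the rule, Hepacam2 was found in 13, Cpe in 12, Cacna1a in 11, Slc18a1 in 10 and Reg4 in 4. These counts come from a separately made table and were not tested against RANKL wells.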

How the data were processed

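Single cells had been sorted into 384-well plates and sequenced with a modified CEL-Seq2 protocol, per the labels. The authors deposited UMI counts per gene and well for each arm; kallisto, bustools, Seurat 3.1.5 and GRCm38 are named in the submitters' processing notes, and how the counting used strand is not stated in the labels. The deposited log-scale tables of the same wells were not used. The RANKL table holds 21099 genes and 6636 wells and that of RANKL+CSRM617 holds 9257 genes and 1903 wells, and wells under 1000 UMIs were left out.

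The members, gene lists and the boundary between days 3 and 4 were chosen with earlier results of these data known. Counts of each class were summed per plate (at least 3 enteroendocrine and 20 none wells) and tested with edgeR 4.0.16 (limma 3.58.1, R 4.3.3) by the quasi-likelihood test with Benjamini-Hochberg adjustment over all genes tested, at 0.05. The filter was filterByExpr with a minimum count of 3 and a total of 15. The genes of the rule were left out of the tested genes. Sums were scaled by total UMIs. On simulated data for the class comparison, TMM over all tested genes gave 89.9% false calls, against 3.09% with total UMIs. The simulated counts were drawn in proportion to total UMIs, which favoured this scaling in advance. The simulation therefore cannot show which scaling is right for the real data. The scaling was chosen after it, and both TMM fits are alternatives added after seeing the data. With total UMIs the test recovered 64% of genes changed 4-fold and 30% of those changed 2-fold for the class comparison (8125 genes), 81% and 10% between periods (1593 genes), and 5% and 0% for the difference of changes (8125 genes). DESeq2 1.42.0 was an alternative. Shares were compared by exact permutation with Python 3.11.15, numpy 2.4.6 and scipy 1.17.1. Symbols were matched to GENCODE M21 for 20538 of 21099 genes.

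The text names, among called genes outside the rule whose mean log2 CPM was at least 5, the 15 largest rises and 10 largest falls between classes, 10 and 10 between periods, and 5 and 5 for the difference of changes, besides list members; 1 gene of this rule is not reported here.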

Additional observations from a re-analysis of the deposited data

Results flagged for a closer look

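A sample far from the others was looked for in 21 groups of values, and 3 were found. Chance gives about 1 in 20 for continuous values, a rate that need not hold for counts near 0. On the 4 plates of days 0 to 3, Trpm7 in enteroendocrine wells stood at 98.1 CPM on replicate 2 of day 2 and at 0 CPM on the other 3. That value came from 2 UMIs, so a single plate with any UMI was bound to stand apart. Igsf8 stood at 425.0 CPM on the day 0 plate (3 UMIs), with the next plate at 49.1 CPM (1 UMI). Among the means of days 0 to 3, the share of enteroendocrine wells on day 2, 1.85%, stood apart from the next, 0.437%.

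The change between periods differed between enteroendocrine and none wells for the 10 named genes by the interaction test of edgeR. On the log2 scale the difference of changes was 2.97 for Gadd45a, 2.68 for Krt20, 2.17 for Rybp, 2.05 for Gm10800 and 1.68 for Serpinb1a. It was -4.41 for Itln1, -4.28 for Gm17494, -3.56 for Hbegf, -3.53 for Reg4 and -3.22 for Cfap299. Of these 10 genes, 2 (Gadd45a and Reg4) kept their call whichever plate was left out, and DESeq2 called 0 genes. Itln1, Gm17494, Hbegf and Cfap299 rest on few transcripts.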

How the results depend on the processing

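Of 2685 values of 97 gene results under the alternatives, 2327 kept their direction and side of the threshold, 350 lost the call, 1 gained it and 7 changed sign. Between classes, Dll1 (-1.17), Notch2 (0.33), Onecut2 (-0.0856), Serpinb1a (-0.19) and Itln1 (0.0718) changed sign on days 0 to 3 alone, Itln1 (0.0337) with at least 4 rule genes and Onecut2 (-0.46) with TMM over all tested genes. The class comparison called 594 genes with at least 4 rule genes, 992 with wells thinned to 2000 UMIs, 251 on days 0 to 3 alone and 3356 with TMM over all tested genes, and 1548 to 1952 with 1 plate left out. Between periods 53 genes were called with no filter, 16 with default filterByExpr, 14 with thinned wells, 2 with a linear trend per day and 0 by edgeR with at least 4 rule genes (81 at an unadjusted p under 0.05), where DESeq2 was not run; DESeq2 called 18 under the main rule, and leaving out 1 plate gave 4 to 38. For the difference of changes, 0 were called with DESeq2 (270 at an unadjusted p under 0.05), 12 with no filter, 2 with at least 4 rule genes, 13 with thinned wells, 10 with at least 5 enteroendocrine wells per plate and 8 with TMM over all tested genes, and 11 to 24 with 1 plate left out. Same-numbered plates of the 2 periods correlated at -0.106 to 0.0411, against -0.0657 to 0.149 for plates of different numbers. These values gave no sign that the numbers pair the plates, but sums this shallow may hide a pairing. With the replicate block 20 genes were called between periods. The difference in share between periods was 0.769 to 1.04 with 1 plate left out. Between arms it was 0.740 with at least 2 rule genes (exact permutation p = 0.0428) and 0.312 to 1.12 with 1 plate left out. The cause of these moves was not tested. At 96 wells with a median of 2890.5 UMIs, scarce transcripts can be missed. The part of depth in the sparse hormone genes was not tested.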
